A study of Mus musculus with 23 samples.

Results

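The baseline described here is the messenger RNA of the hippocampus of wild-type mice, in the 5 libraries labelled WT out of 23 in the series. The members were chosen by the WT label alone, and the libraries are called F1, F2, M2, M3 and M4 after the letter and number in their titles, so that F1 means the library labelled F1. The series as a whole concerns Dp(16)1/Yey mice, a model of Down syndrome, and the other 18 libraries are used below only to check the labels of these 5. F1 and M2 are labelled wild type on strain background C57BL/6 at 2 to 3 months of age, with total RNA as the molecule. F2, M3 and M4 are labelled WT on a strain given as over 90% C57/B6, with polyA RNA as the molecule and a stated sex, and no age is given in their labels. No allele or agent is named for any of the 5. Each label names the hippocampus as the tissue, frozen and extracted with TRIzol, and under both labels polyadenylated RNA was selected with oligo(dT). Nothing in the labels says whether a library is 1 animal or a pool, so the spread given here is the spread between libraries.

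The hippocampus holds a chain of excitatory cells, from dentate granule neurons through CA3 to CA1 pyramidal neurons, that release glutamate and serve learning and memory. Fast excitation runs through AMPA and NMDA receptors, inhibition from local interneurons runs through GABA-A receptors, and voltage-gated channels set how the neurons fire. Astrocytes clear glutamate, oligodendrocytes make myelin, and microglia are the resident immune cells. The choroid plexus, an epithelium that secretes cerebrospinal fluid, lies in the ventricle beside the hippocampus and is not part of its neural tissue.

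Levels are RPKM, that is reads scaled by the authors for the length of the gene and the depth of the library, and levels are compared between genes on this scale, within the limits given below for length and for overlapping or similar genes. RPKM summed to between 357265 and 368295 per library, and the depth, estimated from the steps between low values, was 14.65 to 16.8 M reads. Values are given as mean ± SD over the 5 libraries (n = 5) unless the libraries are named. The range of a gene is its highest value divided by its lowest after 0.1 RPKM is added to each.

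2 of the 5 libraries went against their labels. Ddx3y, an RNA helicase gene on the Y chromosome, was at 12.7 RPKM in F1, 0.02 in F2, 13.7 in M2, 0.01 in M3 and 10.9 in M4. F1, whose letter is F, thus had Y-linked RNA at the level of M2 and M4, and M3, whose label says male, was near 0. In the other 18 libraries Ddx3y was at most 0.03 RPKM in the 8 with the letter F and at least 9.59 in the 10 with the letter M. The other 3 Y-linked genes, Kdm5d, Eif2s3y and Uty, set F1, M2 and M4 above F2 and M3 in the same way. The labels' 2 sets, total RNA and polyA RNA, differed in 6786 of 12939 genes (52.4%) across the 18 other libraries by limma at an adjusted p under 0.05. On a score of 36 such genes with at least a 2-fold difference, scaled so that the mean of the total RNA set was 0 and that of the polyA RNA set was 1, F1 scored -0.10, M2 0.03, F2 1.03 and M4 0.90. M3, labelled polyA RNA, scored -0.18, while the other libraries of its label ran from 0.89 to 1.08 and those labelled total RNA from -0.10 to 0.07. Pearson's r between libraries across genes on the log2 scale ran from 0.970 (F1 and M4) to 0.988 (F1 and M3). The labels are kept here as deposited, and the counts of genes ranging at least 2-fold over all genes, and in 6 of the lists, are also given without F1 and M3.

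Of 21785 genes in the table, 19064 had values, and 12902 had a mean of at least 1 RPKM. Another 929 of those with values were listed at 0 in all 5 libraries. At the upper end 630 genes had a mean of at least 100 RPKM and 16 a mean of at least 1000. The 100 highest genes of each library held 18% ± 0.91 of its summed RPKM, and between 871 and 977 genes held the upper 50%. Genes at 10 to 100 RPKM made up 48.8% of the summed mean level.

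The highest genes combined metabolism, neuronal signalling, myelin and the choroid plexus. Fth1, the heavy chain of the iron store ferritin, was at 1715, 2488, 1712, 1856 and 2475 RPKM in F1, F2, M2, M3 and M4. It was highest in F2 and M4, which stood apart from the other 3. Gapdh, an enzyme of glycolysis, followed at 1751 ± 238 RPKM, and Aldoa, another enzyme of glycolysis, was at 1160 ± 90.3. Mbp, a structural protein of myelin, was at 1339, 1748, 1234, 1224 and 1917 RPKM in the same order of libraries, again highest in F2 and M4. Ubb, a ubiquitin precursor, was at 1459 ± 86.1 RPKM and Eef1a1, which delivers transfer RNA to the ribosome, at 1287 ± 42.6. Genes of neurons came next.

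Nrgn, a calmodulin-binding protein of dendritic spines, was at 1061 RPKM in F1, 1436 in F2, 966 in M2, 1249 in M3 and 1359 in M4. Cpe, which trims neuropeptide precursors, was at 1184 ± 115 RPKM. Hpca, the calcium sensor hippocalcin named after the hippocampus, was at 1118 ± 92.4 RPKM. Camk2a, the alpha subunit of the calcium- and calmodulin-dependent kinase of synaptic plasticity, was at 1063 ± 46.4 RPKM and ranged by 1.11-fold. Calm2, 1 of 3 genes for the same calmodulin protein, was at 1060 ± 71.9 RPKM and made up 40.5% ± 1.4 of the summed calmodulin level. Tmsb4x, an actin-binding peptide gene, was at 1300, 739, 1314, 1406 and 848 RPKM, lowest in F2 and M4. Cst3, a secreted protease inhibitor, was at 1017 ± 108 RPKM. Of the 15 genes with the highest means, 14 are named here with Ttr below, and the other is a predicted gene. Ttr, the thyroid hormone carrier that the choroid plexus secretes, was the only 1 of the 15 that ranged at least 2-fold, as 5.16% of genes with a mean of at least 1 RPKM did. It was at 10.3, 1492, 1497, 553 and 2350 RPKM.

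**Figure D1:**
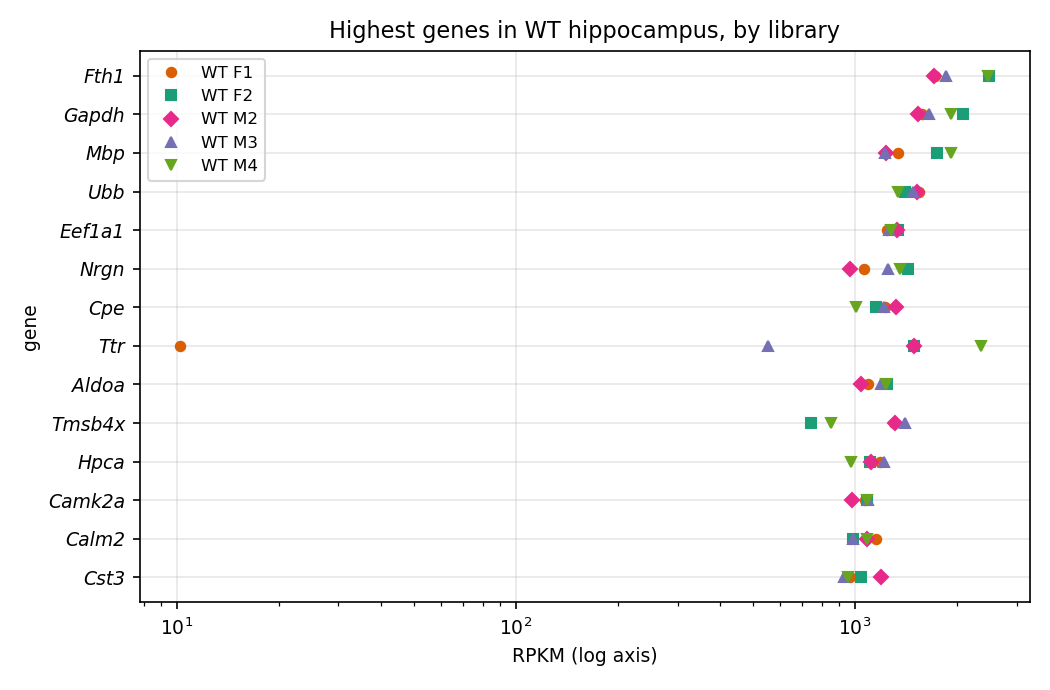
RPKM (log axis) of the 14 named genes among the 15 with the highest mean, with 1 point per WT library. The points of each gene lie close together except those of Ttr, which run from 10.3 RPKM in F1 to 2350 in M4.

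Among AMPA receptors, the glutamate-gated channels of fast excitation, the 4 subunits kept the same order in every library. Gria1 was at 227, 187, 227, 224 and 208 RPKM in F1, F2, M2, M3 and M4. Gria2, whose edited protein keeps the channel from passing calcium, was at 131, 110, 139, 121 and 109 RPKM. Every value of Gria1 lay above every value of Gria2, and Gria1 was 1.77 ± 0.11 times as high within a library. Gria3 was at 46.9 ± 5.9 RPKM and Gria4, the subunit best known from interneurons, at 13.6 ± 0.52. Gria1 made up 54.1% ± 1.7 of the summed subunit level. Cnih2, a cornichon protein that rides with the receptor, led the 12 auxiliary subunits at 385 ± 29.7 RPKM. The transmembrane regulators Cacng7 at 78.5 ± 8.7 and Cacng8 at 71.3 ± 14.6 followed, and their order held in 4 of 5 libraries. Shisa7 was at 58.2 ± 8.0 RPKM, Cacng3 at 33.4 ± 8.6, Shisa6 at 33.0 ± 2.1, Cnih3 at 27.1 ± 5.0 and Cacng2, known as stargazin, at 17.0 ± 3.7. Cacng3 was above Shisa6 in 2 of 5 libraries, so that pair has no order. Gsg1l, an auxiliary subunit that dampens the receptor, was the only 1 of the 12 to range at least 2-fold, from 4.57 RPKM in M3 to 9.61 in F2.

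The order within a family was read from 218 pairs of neighbouring members with a mean of at least 1 RPKM in 36 receptor and channel families. The same member was higher in all 5 libraries in 145 pairs (66.5%), in 4 libraries in 34 pairs and in 3 or fewer in 39. The exact sign-flip permutation test within libraries, two-sided, cannot go below 0.063 with 5 libraries, so no pair can pass 0.05 and the count of libraries is what is given. The median ratio of the means was 1.76 where all 5 libraries gave the same order and 1.11 elsewhere.

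Grin1, the subunit every NMDA receptor needs, was far above the others, at 155, 158, 145, 160 and 157 RPKM. It made up 78.6% ± 1.6 of the summed NMDA subunit level. Grin2c was at 13.7 ± 0.98 RPKM and Grin2a at 12.6 ± 2.5, and Grin2c was the higher in 3 of 5 libraries, so their order is not settled by these data. Grin3a was at 5.86 ± 0.38 RPKM, Grin2b at 5.16 ± 1.4 and Grin2d at 4.30 ± 0.67, and these 3 also changed places between libraries. Grin2a was above Grin2b in every library, by 2.02 to 3.20 times. Grin2b ranged at least 2-fold, from 3.16 RPKM in F2 to 6.81 in M2. RPKM divides by length, and the annotated transcript of Grin2b has 15772 bases against 3838 for Grin1 (GENCODE, median of transcripts with a RefSeq match). No source used here states which length the authors used, and its part in the low level of Grin2b was not tested. Grin3b was below 1 RPKM.

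Of the kainate receptors and their auxiliary subunits, Grik5 led at 75.8 ± 8.4 RPKM, followed by the auxiliary subunit Neto1 at 31.7 ± 6.9 and by Grik4, a subunit of CA3 neurons, at 19.8 ± 1.7. Grik2 was at 11.9 ± 1.0 RPKM, Neto2 at 9.77 ± 0.93, Grik3 at 6.75 ± 1.0 and Grik1 at 3.72 ± 0.42, and this order of 7 held in all 5 libraries. Grid1, a delta subunit, was at 18.7 ± 1.1 RPKM. The metabotropic receptors, which signal through G proteins, were led by Grm5 at 30.7 ± 2.7 RPKM, then Grm2 at 20.8 ± 3.8, Grm7 at 15.8 ± 0.85, Grm3 at 9.84 ± 2.3, Grm4 at 5.05 ± 2.1 and Grm8 at 2.01 ± 0.51. Grm4 ranged 2.63-fold, from 3.12 RPKM in M3 to 8.37 in F2. Grm6, the receptor of retinal bipolar cells, was below 1 RPKM.

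**Figure D2:**
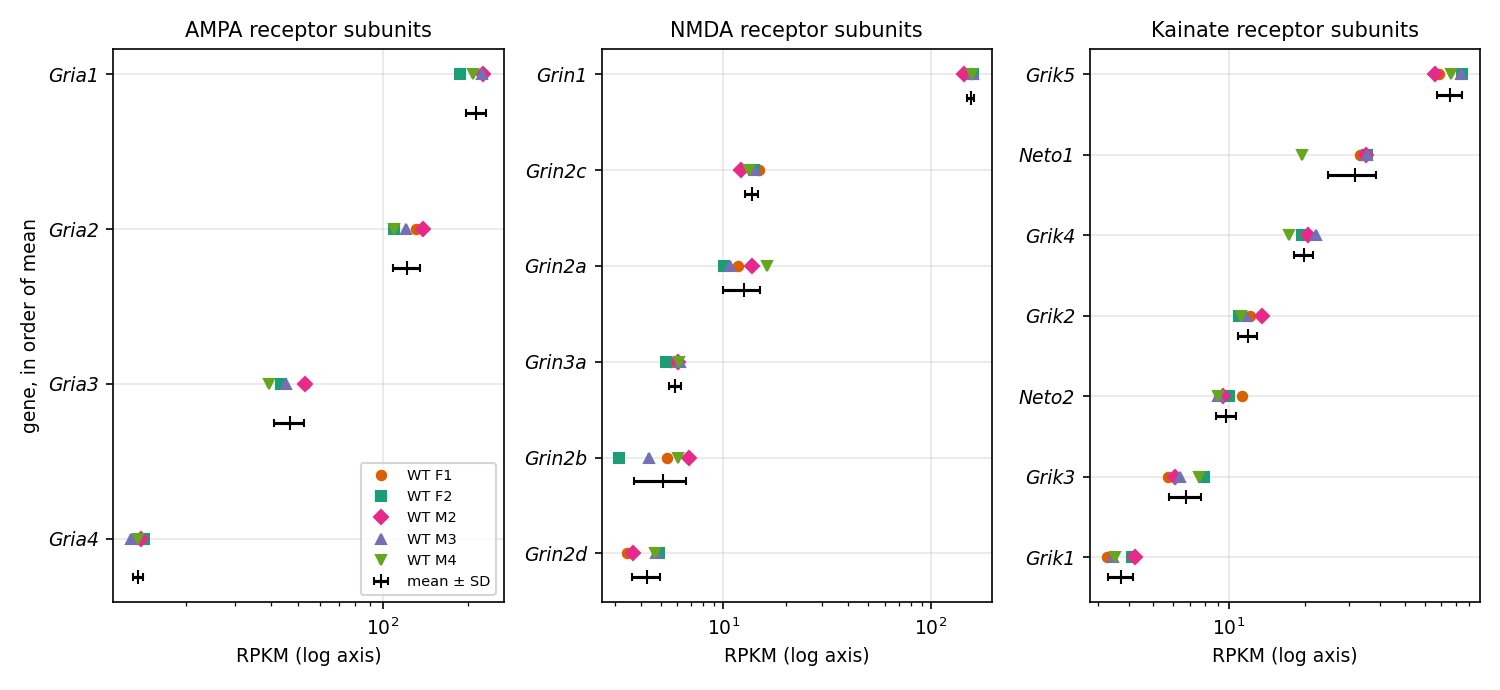
RPKM (log axis) of the AMPA, NMDA and kainate receptor subunits and auxiliary subunits with a mean of at least 1 RPKM, in order of the mean. Coloured points are the 5 WT libraries, and the black mark below each row is the mean with its SD. Gria1 to Gria4 do not overlap, Grin1 stands at 155 RPKM on average above the other NMDA subunits, and Grik5 leads the kainate family at 75.8.

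Gabra5, the alpha subunit best known from extrasynaptic receptors of hippocampal pyramidal neurons, led the 19 GABA-A subunits at 88.0, 79.2, 85.9, 85.7 and 82.3 RPKM. Its values lay close together, and its mean was 84.2 RPKM. Gabrb2 at 29.1 ± 3.3, Gabra2 at 26.4 ± 6.4 and Gabra4 at 24.5 ± 1.6 RPKM did not keep their order, each neighbouring pair holding it in 3 of 5 libraries. Gabrb1 was at 17.2 ± 2.0 RPKM. Of the 19, 13 had means of at least 1 RPKM and 6 were below 1. None of the 13 above 1 ranged 2-fold, against 5.16% of all genes and 1.42% of those at 10 to 100 RPKM, where most of the 13 lay. Gabbr1 and Gabbr2, which pair to form the GABA-B receptor, were at 143.8 ± 8.4 and 63.7 ± 7.8 RPKM, and the auxiliary gene Kctd12 was at 32.5 ± 2.4. Of the glycine receptor subunits Glrb, which also anchors receptors to gephyrin, was at 57.2 ± 2.4 RPKM and Glra2 at 3.14 ± 0.40, while the other 3 were below 1.

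Among receptors for modulators Adora1, the inhibitory adenosine receptor, was at 69.5 ± 5.8 RPKM, and Hrh3, a histamine receptor that curbs transmitter release, at 24.3 ± 3.8. Chrm1, the main muscarinic acetylcholine receptor of forebrain pyramidal neurons, was at 42.8 ± 3.6 RPKM, ahead of Chrm3 at 15.6 ± 1.4 and Chrm4 at 7.53 ± 1.2. Of the 16 nicotinic subunits 5 reached 1 RPKM, led by Chrnb2 at 12.6 ± 0.81 and Chrna7 at 9.40 ± 1.1. Cnr1, the cannabinoid receptor of nerve endings, was at 36.3 ± 3.3 RPKM, above the nociceptin receptor Oprl1 at 13.9 ± 1.8 and the delta opioid receptor Oprd1 at 3.82 ± 0.23. The mu and kappa opioid receptor genes Oprm1 and Oprk1 had means of 0.16 and 0.29 RPKM.

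Among the serotonin receptors Htr2c was at 11 ± 2.8 RPKM and Htr1a at 10.4 ± 1.3, and they traded places between libraries. Htr3a followed at 5.16 ± 0.88, and 7 others lay between 2.55 and 3.34 RPKM with no order held in all 5 libraries. Htr5b ranged 2.03-fold, from 2.39 RPKM in M4 to 4.95 in F1. Adra1d led the adrenergic receptors at 32.6 ± 4.6 RPKM, followed by Adra2c at 7.25 ± 1.0 and Adrb1 at 5.72 ± 0.92. Of the dopamine receptors Drd5 was at 6.31 ± 1.5 RPKM and Drd2 at 1.39 ± 0.31, and Drd1, Drd3 and Drd4 were below 1. Ntsr2, a neurotensin receptor of astrocytes, led the neuropeptide receptors at 78.1 ± 11.5 RPKM, followed by the PACAP receptor Adcyap1r1 at 32.4 ± 2.7 and the neuropeptide Y receptor Npy2r at 16.2 ± 0.93. The neuropeptide receptors Cckbr, Ntsr1 and Crhr2 ranged between 2.13- and 2.50-fold.

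Nr3c2, the mineralocorticoid receptor, was at 31.0, 28.1, 29.8, 29.9 and 30.5 RPKM. Nr3c1, the glucocorticoid receptor, was at 12.2, 14.4, 12.3, 10.3 and 14.4 RPKM. The levels did not overlap, and the ratio of Nr3c2 to Nr3c1 ran from 1.95 in F2 to 2.91 in M3. Ntrk2, the receptor of brain-derived neurotrophic factor, led the growth factor receptors at 91.4 ± 5.8 RPKM. Fgfr1 was at 39.0 ± 3.3, and Ntrk3 at 30.0 ± 0.98 and Fgfr3 at 29.9 ± 5.6 could not be put in order. The ATP-gated channels were low, with P2rx4 at 4.06 ± 0.52 RPKM, P2rx6 at 3.33 ± 0.30 and P2rx7 at 2.85 ± 0.16. P2rx5 ranged 2.43-fold around a mean of 1.35.

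Of the sodium channel alpha subunits, which carry the upstroke of the action potential, Scn8a was at 42.7 ± 2.2 RPKM and Scn2a at 34.5 ± 1.8, and Scn8a was the higher in every library. Scn1a, prominent in fast-spiking interneurons, was at 13 ± 0.83 and Scn3a at 7.47 ± 0.71, and the other 6 with values were below 1 RPKM. Of the beta subunits Scn3b was at 86.7 ± 10.6 RPKM, Scn2b at 56.6 ± 3.8 and Scn4b at 5.24 ± 0.95. The calcium channel pores were led by Cacna1e (R-type) at 36.3 ± 3.5 RPKM, Cacna1a (P/Q-type) at 26.4 ± 2.1, Cacna1h (T-type) at 23.6 ± 2.2 and Cacna1b (N-type) at 19.6 ± 1.4, and these 4 kept their order in all 5 libraries. The L-type genes Cacna1c at 13.5 ± 2.1 and Cacna1d at 9.28 ± 0.81 were lower, and Cacna1s, the pore of skeletal muscle, had a mean of 0.11 RPKM. Cacnb3 led the beta subunits at 92.2 ± 8.5 RPKM and Cacna2d1, the target of gabapentin, the alpha2delta subunits at 33.5 ± 2.7. Itpr1, a calcium release channel of the endoplasmic reticulum, was at 42.1 ± 4.5 RPKM and Ryr2 at 21.4 ± 2.9.

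Among the voltage-gated potassium channels Kcnc1 was at 35.9 ± 0.78 RPKM and Kcna1 at 29.5 ± 1.6. Kcnd2, the A-type channel of dendrites, was at 25.4 ± 1.7 RPKM, Kcnc4 and Kcnc2 were at 24.3 and 21.6, whose order held in 3 of 5 libraries, and Kcna2 was at 18.9. Of the accessory subunits Kcnab2 was at 235 ± 17.4 RPKM, Kcnip2 at 115.0 ± 21.2 and Dpp6 at 94.4 ± 5.0. Kcnq3, a subunit of the M-type channel, was at 31.4 ± 2.1 RPKM. Kcnh7 was near the low end at 1.64 ± 0.86 and ranged 3.44-fold. The inward rectifiers were led by the glial channel Kcnj10 at 42.0 ± 6.0 RPKM, followed by the G protein-gated subunits Kcnj3 at 34.0 ± 3.5 and Kcnj9 at 25.1 ± 1.0. Kcnj6, another G protein-gated subunit, was at 18.3 ± 1.9 RPKM. Kcnj13, a channel of the choroid plexus, was at 0.41, 8.49, 6.93, 1.43 and 12.4 RPKM, lowest in F1 and M3.

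The leak channels were led by Kcnk1 at 39.5 ± 3.8 RPKM, Kcnk2 at 12.6 ± 0.75 and Kcnk9 at 9.30 ± 1.3, and Kcnk12 ranged 2.09-fold around 4.25. Kcnmb4, the neuronal accessory subunit of the large-conductance calcium-activated channel, was at 41.5 ± 4.3 RPKM, against 26.0 ± 3.1 for the pore gene Kcnma1, and the small-conductance channel Kcnn2 was at 29.2 ± 3.4. Hcn2, a pacemaker channel, was at 40.8 ± 11.9 RPKM. Pex5l, an auxiliary subunit that traffics HCN channels, was at 66.6 ± 10.1 RPKM. Clcn4 at 47.2 ± 2.3 RPKM led the chloride channels and transporters, and Asic2 at 21.7 ± 1.7 the acid-sensing channels. Of the TRP channels Trpc4 was at 19.4 ± 4.1 RPKM, Trpm3 at 14.2 ± 5.3 and Trpc1 at 11.9 ± 1.4, and each neighbouring pair held this order in 3 of 5 libraries. Trpm3 and Trpv4, which the choroid plexus expresses strongly, were lowest in F1, at 7.70 and 0.66 RPKM, against 19.2 and 3.31 in M4. The astrocyte connexin Gja1 was at 64.2 ± 9.3 RPKM and the neuronal Panx2 at 54.5 ± 9.2. Gjb1, the connexin of oligodendrocytes, ranged 2.05-fold, and Gjb2, of the meninges, 3.75-fold.

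Defining markers of the hippocampus were present in every library. In bulk tissue, fewer cells of a type and less RNA per cell cannot be told apart. Of the dentate granule neuron markers all 10 exceeded 1 RPKM, among them Calb1, a calcium buffer, at 40.3 ± 3.4 RPKM and C1ql2, a secreted synaptic protein of mossy fibres, at 36.6 ± 6.0. Stxbp6 was at 20.9 ± 2.3 RPKM. All 8 CA1 markers exceeded 1 RPKM, with Mpped1 at 67.2 ± 4.3, Nov at 43.5 ± 5.6 and Wfs1 at 40.3 ± 5.4. For CA2 6 of 7 markers did, led by Pcp4 at 127.5 ± 32.2, Necab2 at 60.4 ± 5.5 and Rgs14 at 40.9 ± 6.1, and for CA3 7 of 8, led by Nnat at 309 ± 41.6, Bok at 35.6 ± 7.5 and Grik4. Coch, on the CA3 list, ranged 2.44-fold around 3.01 RPKM. Slc17a7, the vesicular glutamate transporter of cortex and hippocampus, was at 565.9 ± 46.3 RPKM, against 4.15 ± 1.7 for Slc17a6, the form of thalamus and brainstem.

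The interneuron list, whose leading members Sst, Cck and Npy are neuropeptides, summed to 1068 ± 189 RPKM. Npy was at 63.3, 119, 63.0, 76.7 and 116 RPKM and Cck at 294, 460, 279, 324 and 494, and in both genes F2 and M4 were the highest. Sst was at 376 ± 61.9 RPKM. Gad1, an enzyme that makes GABA, was at 83.9 RPKM on average and ranged 1.16-fold. Lists of other regions had lower sums, with means of 53.57 RPKM for thalamus, 85.25 for striatum and 66.65 for cortex. The dentate list summed to 156.6 RPKM and the CA3 list to 400.1. The lists differ in size, and Nnat alone made up 77.1% ± 3.3 of the CA3 sum, so the sums do not rank the regions. Single genes overlapped in level between these lists. The thalamus list was led by Calb2 at 25.1 ± 6.3 RPKM, which interneurons also express, and Prkcd at 10.2 ± 1.8. The striatum list was led by Ppp1r1b at 39.6 ± 8.4 RPKM, near the dentate marker Calb1 at 40.3. Penk at 15.2 ± 1.8 and Pde10a at 12 ± 1.1 followed. Fezf2 at 22.4 ± 3.9, Lamp5 at 19.5 ± 1.9 and Tbr1 at 14.4 ± 3.9 RPKM led the cortex list.

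The 12 astrocyte markers summed to between 1944 RPKM in F2 and 1989 in M2. They were led by glutamine synthetase Glul at 650 ± 48.6, Aldoc at 299 ± 23.7 and the glutamate transporter Slc1a2 at 249.9 ± 28.2. None ranged 2-fold, a share near the 1.42% of all genes at 10 to 100 RPKM and the 1.63% at 100 to 1000. The 12 microglia markers, among them C1qa at 42.0 ± 2.3 and C1qb at 37.4 ± 3.0 RPKM, also held no member ranging 2-fold. Olig1 was at 70.9 ± 6.2 RPKM and Sox10 at 23.3 ± 7.0 among the 7 oligodendrocyte precursor markers. Of 9 endothelial markers Slc2a1, the glucose transporter of the blood-brain barrier, was at 49.7, 34.1, 49.8, 66.3 and 34.0 RPKM, lowest in F2 and M4. Acta2 and Tagln, contractile genes of smooth muscle, ranged 2.46- and 2.13-fold, with the lowest values in M3. The neurogenesis list was led by Hopx at 43.5 ± 8.7 RPKM, Sox2 at 17.6 ± 6.0 and Ccnd2 at 17.4 ± 1.1, while Mki67 and Top2a, genes of dividing cells, were below 1.

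Myelin genes were lowest in M3. Mobp, a structural protein of myelin, was at 466, 435, 490, 414 and 497. Of the 13 mature oligodendrocyte genes, 12 had their lowest value in M3, against 21.4% of all genes with a mean of at least 1 RPKM. The sum of the list ran from 2549 RPKM in M3 to 3514 in M4. Ermn, a cytoskeletal protein of myelinating cells, was the only 1 of the 13 to range at least 2-fold, by 2.24.

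The spread between libraries was small for most genes. Over the 12902 genes with a mean of at least 1 RPKM the median range was 1.31-fold and the median SD of log2(RPKM + 0.1) was 0.16. A range of at least 2-fold was found in 666 genes (5.16%), at least 4-fold in 125 and at least 10-fold in 47. Without F1 and M3 the number ranging 2-fold was 302. Low levels weighed on this count: 71.6% of the 666 had a mean under 5 RPKM, against 27.1% of all genes tested. Of genes with 1 annotated transcript length, the median SD was 0.16 where counting error alone, at the estimated depth, would give 0.06, and 7.61% of them lay at or under their counting error. Predicted genes made up 83 of the 666.

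**Figure D3:**
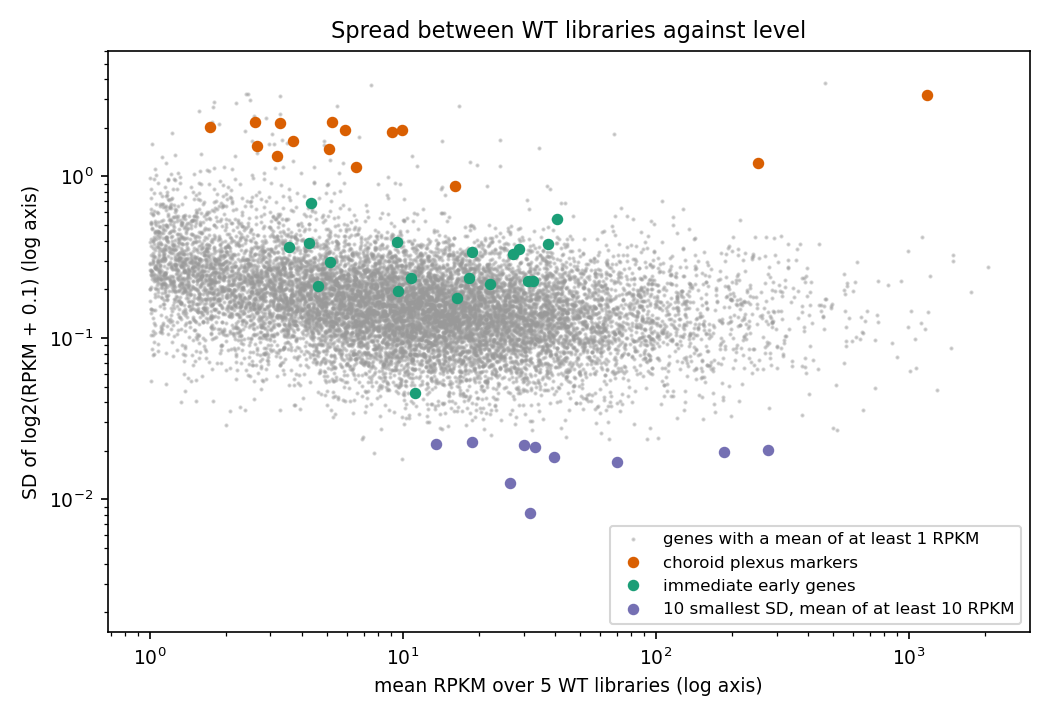
SD of log2(RPKM + 0.1) between the 5 WT libraries against mean RPKM (both axes log), with 1 grey point per gene with a mean of at least 1 RPKM. Choroid plexus markers (orange) lie above most genes, with a median SD of 1.88 against 0.16 for all genes, immediate early genes are green, and the 10 genes of smallest SD (purple) run from 0.008 to 0.023.

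The libraries that stood apart differed by gene. The largest gap between sorted values set M4 apart from the other 4 in 109 of the 666 genes, F2 together with M4 in 101, F1 together with M3 in 92, M3 in 83, F1 in 70, F2 in 63 and M2 in 56. Of the 92 genes that set F1 and M3 apart, 83 were lower there, and of the 101 that set F2 and M4 apart, 74 were higher there. This grouping of F2 with M4 matches the score of the library sets, and library set and biology cannot be told apart in it. Content of G and C in transcripts moved with the libraries: across 12731 genes its Pearson's r with the deviation of a library from the mean was -0.28 in M2, 0.26 in M3, 0.18 in F2, -0.13 in F1 and -0.03 in M4. Its part in the spread was not tested.

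The 20 genes of largest SD held 5 predicted genes, and of the other 15 a group belonged to the choroid plexus and another to the Y chromosome. Lrrc17, a secreted leucine-rich repeat protein, had the largest SD of all, at 4.84, 1374, 12.2, 17.2 and 914 RPKM. F2 and M4 were thus far above the other 3 libraries. The annotation (GRCm38) places it on chromosome 5 inside the bounds of another gene, Fbxl13, so reads of the pair could be split by the counting. Tmem254c was listed at 0 in F1, M2 and M3 and at 5.51 in F2 and 6.48 in M4, while its near copy Tmem254b was lowest in F2 at 4.77 RPKM and between 22.6 and 32.7 in the others. The histone genes Hist2h3c1, Hist1h2ap and Hist2h3b, the paralogue Plac9b and the glucuronosyltransferase gene Ugt2b35, which was at 8.92 RPKM in F2 and at most 0.02 elsewhere, also varied. Members of such families resemble each other, and no source used here states how the authors assigned shared reads, so their values are uncertain.

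The choroid plexus genes varied together. All 15 markers ranged at least 2-fold, against 5.16% of all genes, and all 15 had their lowest value in F1, where 14.5% of all genes had theirs. Their summed level was 74.6 RPKM in F1, 1889 in F2, 1951 in M2, 735 in M3 and 2892 in M4. F1 was lowest, M3 came next and M4 was highest, so the highest sum was 38.8 times the lowest. Enpp2, a secreted lipid enzyme that oligodendrocytes also make, was at 53.6, 304, 351, 144 and 412 RPKM. Folr1, a folate receptor, was at 0.60, 12, 14.5, 4.17 and 18.6 RPKM. Kcne2, a potassium channel accessory subunit, was at 0.14, 5.07, 7.54, 3.29 and 10.2 RPKM. Clic6, Slc4a5, F5, Otx2, Aqp1, Prlr, Calml4, Sostdc1, Tmem72, Kl and Kcnj13 kept the same lowest library, with ranges between 4.42- and 36.9-fold. Wfdc2, which is not on the list, was listed at 0 in F1 and reached 5.37 RPKM in M4. Without F1 and M3, none of the 15 ranged 2-fold, while leaving out either of them alone left all 15 above it.

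Neighbouring tissues of the ventricle and surface moved in part with it. Of 7 ependymal markers, genes of the ciliated cells that line the ventricle, 6 ranged 2-fold, and M3 was lowest in 5, against 21.4% of all genes. Foxj1, the regulator of motile cilia, was at 3.84, 7.37, 6.87, 4.07 and 9.96 RPKM. Rarres2, Ccdc153, Rsph1, Dynlrb2 and Tmem212 ranged between 2.09- and 4.37-fold. Of 8 meningeal fibroblast markers at 1 RPKM or more 5 ranged 2-fold, with M3 lowest in 6 and M4 highest in 7, where 21.1% of all genes were highest. Igf2, a growth factor made by meninges and choroid plexus, was at 21.6, 45, 43.5, 15.8 and 65.5 RPKM. Slc6a13, Aldh1a2, Col1a1 and Col1a2 ranged between 2.11- and 3.85-fold. None of these members ranged 2-fold without F1 and M3. Without M3 alone 3 ependymal and 1 meningeal members did, and without M4 alone 3 meningeal members.

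**Figure D4:**
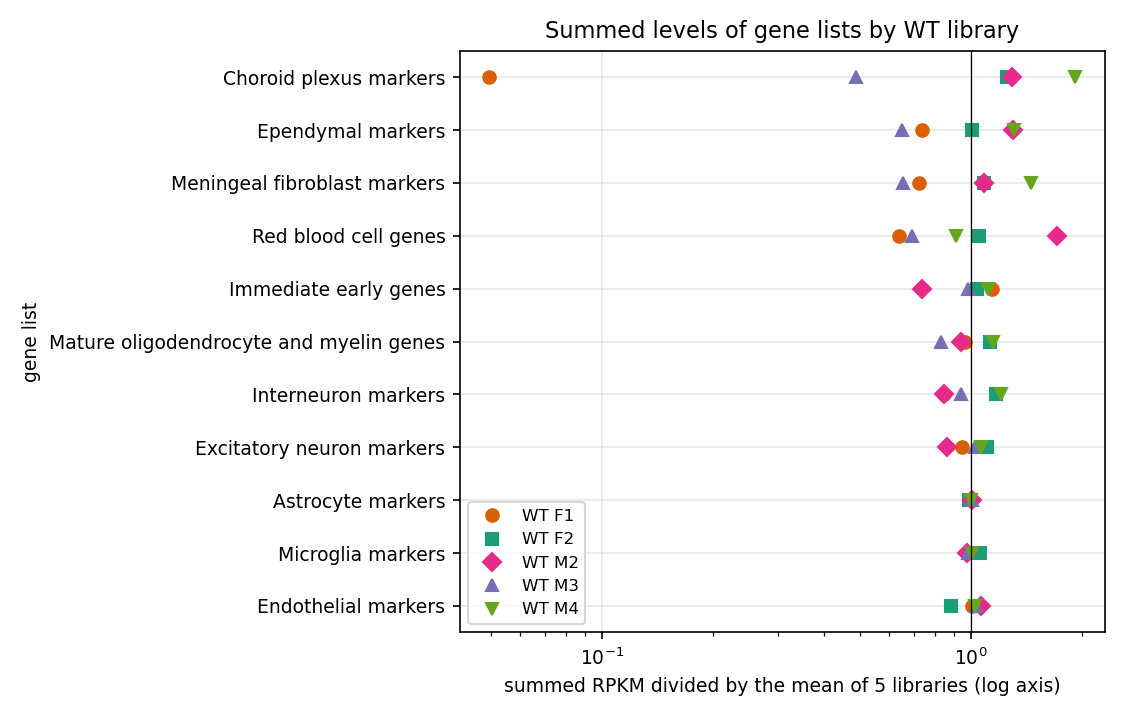
Summed RPKM of 11 gene lists in each WT library, divided by the mean of the 5 libraries (log axis). The choroid plexus sum spreads 38.8-fold with F1 lowest, the ependymal and meningeal sums spread 2.02- and 2.21-fold, and the astrocyte and microglia sums stay close to the mean.

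Most of the immediate early genes, which neurons switch on within minutes of activity, were lowest in M2. Fos was at 6.98, 4.22, 1.86, 3.71 and 4.92 RPKM and Arc, a synaptic plasticity gene, at 53.0, 37.4, 20.5, 42.2 and 50.1. Egr1 was at 43.5, 39.7, 23.6, 34.7 and 46.1 RPKM. M2 had the lowest value in 16 of the 19 members with a mean of at least 1 RPKM, against 13.8% of all genes. M2 was also lowest in 7 of 10 genes common to neurons and in 6 of 8 excitatory neuron markers. The same held for 8 of 16 postsynaptic density genes and 8 of 19 presynaptic release genes. Among interneuron markers it held for 4 of 12, and among CA3 markers for 0 of 7. Whether the immediate early genes were low apart from other neuronal genes was not tested. Jun, at 32.6 ± 5.0 RPKM, was lowest in F1. Fos, Arc and Dusp1, a phosphatase that ends kinase signals, ranged at least 2-fold, none did without M2, and 2 did without F1 and M3. Globin genes of red blood cells were highest in M2: Hbb-bs was at 61.8, 115, 205, 65.7 and 81.8 RPKM, and all 4 globin genes, including Hba-a1, Hba-a2 and Hbb-bt, had their highest value there, against 27.5% of all genes. All 4 ranged at least 2-fold, and 2 did without M2 or without F1 and M3. Globin copies are alike, and the ratio of Hbb-bs to Hbb-bt ran from 3.41 in F1 to 17.3 in M4, so the split between copies is uncertain. Their part in the low immediate early genes of M2 was not tested.

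Most listed targets of glucocorticoids, the stress hormones, were low in F2 and M4. Sgk1, a kinase that the hormone induces, was at 58.1, 24.2, 34.2, 69.3 and 26.0 RPKM. Tsc22d3, known as GILZ, was at 64.4, 23.6, 48.5, 57.8 and 24.8 RPKM and Fkbp5, a chaperone of the receptor, at 27.1, 14.9, 26.2, 31.7 and 16.4. In each of these 3 genes F2 and M4 lay below the other libraries. F2 and M4 were the lowest pair in 8 of the 13 members, against 27.4% of all genes, and 6 members, Plin4, Sult1a1 and Cdkn1a included, ranged 2-fold. The metallothioneins Mt1 at 468.5 ± 56.3 RPKM and Mt2 at 262 ± 25, also on the list, were highest in M4. Without F1 and M3 the number ranging 2-fold was 2, as it was without F2 alone. Per the labels only F1 and M2 carry an age, and the hour of dissection is not given for any library.

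Of 15 clock genes none ranged 2-fold, against 5.16% of all genes and 1.42% of those at 10 to 100 RPKM. Their median SD on the log2 scale was 0.17 against 0.16 for all genes. Tef was at 101.5 ± 14.4 RPKM and Cry2 at 32.3 ± 2.9, while Nr1d1, a repressor of the clock, was at 26.7, 51.5, 29.0, 27.4 and 41.9, highest in F2 and M4. Of 12 interferon response genes at 1 RPKM or more, Bst2 and Ifit3 ranged 2.04- and 2.07-fold around 4.44 and 3.21 RPKM, and Ifi27, the highest, was at 23.1 ± 0.98. Lcn2, an acute-phase gene, was at 13.9 RPKM in M4 and between 0.34 and 0.63 in the other 4; it was chosen for mention after its values were seen.

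Of 19 genes of presynaptic release none ranged 2-fold, a share near the 1.42% of all genes at 10 to 100 RPKM, and their median SD on the log2 scale was 0.14, as it was for genes at that level. Snap25, a fusion protein of the vesicle machinery, was at 893, 1028, 806, 791 and 1132 RPKM, Vamp2, its vesicle partner, at 611 ± 96.0 and the vesicle protein Syp at 563.5 ± 34.6. F2 and M4 were the highest pair in 7 of the 19, against 18.7% of all genes. Of 16 postsynaptic density genes none ranged 2-fold either, with Camk2b at 344 ± 17.3 RPKM and Dlg4, the scaffold PSD-95, at 269.0 ± 16.6. Camk2a was 3.09 ± 0.11 times as high as Camk2b within a library. Of the reference genes, Ppia was at 1009 ± 43.0 RPKM and Actb at 567 ± 86.1, and Tfrc, the transferrin receptor, ranged 2.09-fold.

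The least variable genes with a mean of at least 10 RPKM included Taok2, a kinase of neuronal development, at 31.8, 31.6, 32.0, 31.5 and 31.8 RPKM. Its SD on the log2 scale was 0.008, while counting error alone would give about 0.029 at an estimated 2499 reads. Nudt19, U2af2, Sars, Rplp2, Cdk10, Fam102a, Mapk1ip1l and Jtb also had SDs below their estimated counting error. Nsg2, an endosomal protein of neurons, had an SD of 0.020 against 0.015. An order among such genes is therefore not resolved at this depth. U2af2 is a splicing factor, at 70.1 ± 0.82 RPKM, Sars a seryl transfer RNA synthetase, at 39.6 ± 0.50, and Rplp2 a ribosomal stalk protein, at 186 ± 2.5.

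The start regions of 4 genes named above show how far CG dinucleotides, the sites of DNA methylation in mammals, differ between a high receptor subunit, the least variable gene and a pair of the most variable genes. Each sequence runs from 250 bases before to 50 bases after the RefSeq start (GRCm38.p6), is written 5′ to 3′ on the strand of the gene, and has CG in capitals. For every gene the first start listed was taken, and any other start of the gene was not counted for it.
Grin1: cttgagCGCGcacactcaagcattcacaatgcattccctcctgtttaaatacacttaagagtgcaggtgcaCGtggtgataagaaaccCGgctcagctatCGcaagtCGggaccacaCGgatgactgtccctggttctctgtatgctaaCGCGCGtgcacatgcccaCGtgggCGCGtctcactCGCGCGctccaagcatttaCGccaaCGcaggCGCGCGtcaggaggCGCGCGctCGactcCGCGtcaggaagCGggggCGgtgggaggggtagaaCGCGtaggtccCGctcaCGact
Taok2: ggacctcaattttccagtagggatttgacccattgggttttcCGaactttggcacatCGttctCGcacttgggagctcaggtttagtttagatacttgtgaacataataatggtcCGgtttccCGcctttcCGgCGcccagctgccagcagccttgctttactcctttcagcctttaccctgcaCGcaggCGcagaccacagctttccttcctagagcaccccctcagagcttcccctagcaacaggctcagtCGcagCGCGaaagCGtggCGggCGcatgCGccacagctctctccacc
Lrrc17: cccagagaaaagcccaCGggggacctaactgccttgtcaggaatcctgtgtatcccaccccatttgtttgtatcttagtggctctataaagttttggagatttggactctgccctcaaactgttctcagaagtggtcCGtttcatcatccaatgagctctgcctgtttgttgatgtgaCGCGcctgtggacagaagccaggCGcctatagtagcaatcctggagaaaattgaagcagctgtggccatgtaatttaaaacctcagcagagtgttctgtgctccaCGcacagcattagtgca
Kcne2: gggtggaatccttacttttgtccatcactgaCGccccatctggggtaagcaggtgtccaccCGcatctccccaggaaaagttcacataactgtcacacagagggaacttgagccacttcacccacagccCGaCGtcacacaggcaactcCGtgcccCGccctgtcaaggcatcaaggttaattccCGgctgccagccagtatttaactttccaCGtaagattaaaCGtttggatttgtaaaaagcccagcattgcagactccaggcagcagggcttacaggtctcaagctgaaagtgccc
Grin1 (chr2:25319138-25319437, minus strand) holds 33 CG, a count that 8.56% of the 32851 start regions in the RefSeq table reach. Taok2 (chr7:126884918-126885217, minus strand) holds 16, which 33.0% reach. Lrrc17 (chr5:21543277-21543576, plus strand) holds 6 and Kcne2 (chr16:92292139-92292438, plus strand) 9, against a median of 7 over all regions. The start regions of Fth1 and Gabra5, whose sequences are not shown, were counted too. At the first start listed, Fth1, the highest gene, holds 4 CG, which 68.6% reach, and Gabra5 holds 13, which 37.9% reach. Whether the starts taken are the ones used in the hippocampus was not tested. Of the 4 genes shown, Grin1 and Taok2 thus hold more CG than Lrrc17 and Kcne2, while Fth1 holds fewer than any of them. So few picked genes cannot show whether CG count goes with level or spread. The median was 1 CG in genes with no value in any library and 23 in genes at 10 to 100 RPKM. For the other level classes fewer than 80% of genes had a start region in the table, so no value is given.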

How the data were processed

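Messenger RNA was sequenced from mouse hippocampus, and the values used are RPKM as deposited by the authors, written to 2 decimals for each gene in each library. Reads were aligned with HISAT to mm10, per the submitters' processing notes; no source used here states the version, how reads were counted, whether strand was used, or what length and total the RPKM were divided by. The sets named total RNA and polyA RNA follow the labels' molecule field, and the total RNA libraries were read as single ends of 50 bases, per the labels' protocols.

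Levels were averaged over the 5 WT libraries, and spread was the SD of log2(RPKM + 0.1), over genes with a mean of at least 1 RPKM. The label check used limma 3.58.1 in R 4.3.3 on the 18 other libraries, with genotype label and sex letter as covariates, an intensity trend and Benjamini-Hochberg adjustment, and was tested on simulated data. Depth was estimated from 622 genes with transcripts under 1000 bases and a mean below 0.3 RPKM: at the estimate 56.2% to 66.8% of values came within 0.15 of a whole read, against 30% by chance at a fixed depth. No counting interval was computed from it beyond the counting errors in the text. Transcript lengths, neighbours and start regions came from GENCODE and RefSeq on GRCm38.

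Genes are named by rule: the 15 of highest mean, the 20 of largest SD, the 10 of smallest SD with a mean of at least 10 RPKM, up to 8 members of each receptor or channel family at 1 RPKM or more, and of each other list the 3 highest and any that ranges 2-fold. Some genes outside the rule are named as the ones at or near the low end of a family or as examples; these were chosen after their values were seen. A few genes meeting it are left out of the text. The members and lists were chosen with earlier results of these data known. Alternatives were each library left out, F1 and M3 left out, other pseudocounts, other filters and rescaling by the median ratio. P-values measure only the spread between these libraries.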

Additional observations from a re-analysis of the deposited data

Results flagged for a closer look

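1 library stood apart in 19 of 361 sets of 5 values, where the gap to its nearest neighbour exceeded 0.71 of the whole range (Dixon's 95% critical value). Chance alone flags about 5% of such sets, and some genes were named because of an outlying value. The size of the gap as a share of the range, on the log2 scale for genes and list sums, is given in parentheses. The estimated depth was lowest in M4, at 14.65 M reads (0.8837). Among list sums the muscarinic receptors were lowest in M2 (0.7608) and the endothelial markers in F2 (0.7138).

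M4 held the lowest level of Neto1, the kainate receptor partner, at 19.5 RPKM against 33.1 to 35.5 in the others (0.8827), and the lowest of Cers1 (0.8930). It also held the highest of Kcnj3, at 40.1 RPKM (0.7139), and of Lcn2 (0.8538). M2 held the lowest level of Camk2a, at 981 RPKM (0.7960), and of Cacna1a, at 22.7 (0.7666), and the highest of Ifi27, at 24.9 (0.7930). M3 held the highest level of Hrh3, at 31.1 RPKM against 22.0 to 23.4 in the others (0.8279), and the lowest of Stxbp6, at 17.0 (0.7897). F1 held the lowest level of Ttr (0.7332) and of Clic6, another choroid plexus gene, at 0.54 RPKM (0.7146), and the highest of Scn1a, at 14.4 (0.7433). F2 held the highest level of Olig1, at 81.8 RPKM (0.7946), of Kcnk2, at 13.9 (0.7887), and of Ugt2b35 (0.9595), and the lowest of Tmem254b (0.8076).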

How the results depend on the processing

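The number of genes at 1 RPKM or more and the number of family pairs with 1 order stayed within 1.5 times the reported value under each alternative tried. The share of the 100 highest genes ran from 17.67% to 18.32% when libraries were left out. Rescaling a library cannot change its share. The number of genes ranging at least 2-fold was 666 and moved by over 1.5 times in 5 settings: 302 without F1 and M3, 329 with a pseudocount of 1, 189 with a filter at a mean of 5 RPKM, 1021 with a filter at 0.5 RPKM and 2602 with no filter beyond a value above 0. A pseudocount or filter changes how far low values enter the count, and leaving out libraries lowers the number of values compared. With 1 library left out it ran from 451 to 578, and after rescaling it was 660. The label check called 6372 to 6920 genes; rescaling changed its split from 2297 higher and 4489 lower in the polyA RNA set to 3213 and 3159. No paired analysis was possible because no group is compared with another here. The mean level of each of 288 named genes moved by less than 1 SD in all 1728 recomputations that left out a library or F1 and M3. Arithmetic fixes this outcome for 5 values, so it does not measure how stable a level is. Depth limits genes at 1 to 10 RPKM, where the median counting error on the log2 scale was 0.10.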

Other observations

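Some genes that set 1 library apart fall outside the lists above and were chosen after their values were seen. In M2 Cartpt, a neuropeptide gene, was at 1.70, 2.80, 6.26, 2.93 and 2.04 RPKM in F1, F2, M2, M3 and M4, and Ecel1, a membrane peptidase of neurons, was at 0.66, 1.48, 5.95, 1.26 and 1.23. Trhr, the receptor of thyrotropin-releasing hormone, was at 3.50 RPKM in M2 and at most 1.71 elsewhere. Cd74, the invariant chain of class II molecules, was at 2.10, 13.4, 3.44, 1.32 and 5.45 RPKM, with F2 highest. The class II chains H2-Ab1 and H2-Aa were at 2.13 and 2.55 RPKM in F2, and at 1.38 and 2.04 in M2, the next highest.

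The acute-phase genes Lrg1 and Cp were, like Lcn2, highest in M4, at 2.26 and 7.66 RPKM. Rasd1 and Ddit4, both induced by glucocorticoids, were highest in F1, at 39.2 and 35.8 RPKM, with M3 next at 37.9 and 34.7, and were not on the list used above. Cers1, a ceramide synthase, was at 39.4, 45.5, 36.1, 46.7 and 4.10 RPKM, while Gdf1, a growth factor gene annotated over the same stretch of chromosome 8, was at 7.06, 16.6, 9.15, 9.97 and 55.1. M4 was thus lowest for the one and highest for the other, and how reads were divided between this pair is uncertain.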
